A study of Mus musculus with 6 samples.

Results

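The mouse genes named Zfp followed by a number encode zinc finger proteins, and 160 of the 305 such genes on the array had a probe set with a mean intensity of at least 50 units over the 6 arrays. These 160 genes are described here, each by its probe set of highest mean, among 10210 genes of the whole array that the same rule selects. Total RNA from testes of mice aged 8 weeks was hybridised to oligonucleotide arrays, and the labels name no treatment. There were 2 mice of the inbred strain MRL/MpJ+/+, 2 of AKR/N and 2 of C57BL/6, with 2 arrays for each strain. The labels do not tie each array to a mouse. The comparison is of probe set signal from testis between the strains. Probe sequences were not at hand, so whether strain variants lie under the probes was not tested. Intensities are the linear values deposited by the authors. A fold change here is a difference between strain means of log2(intensity + 16), given with its standard error (SE), and a gene is called when limma's p-value, adjusted over all 29692 probe sets tested, lies below 0.05. The members were selected by name and mean level, with no strain difference in the rule, and all 160 passed the filter on dim probe sets. In 38 of them at least 1 array lay below 50 units, and in 25 a strain mean did. The limit can thus be reached through 1 strain. Zfp980 did so, with means of 30.9 units in MRL/MpJ+/+, 48.4 in AKR/N and 107 in C57BL/6. Just inside the limit stood Zfp846, Zfp532 and Zfp472, with means of 50.5, 50.5 and 50.02 units. Just outside stood Zfp82, Zfp710 and Zfp157, with 48.6, 47.9 and 47.3 units.

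Most Zfp proteins carry arrays of C2H2 zinc fingers, small folds held together by a zinc ion that read DNA sequence. Many of them also have a KRAB domain, which recruits the corepressor Trim28 and with it histone methylation and deacetylation, and their best known targets are retroelements and imprinted genes. The genes arose by repeated duplication and lie in clusters of similar copies, so a probe set may also bind transcripts of a relative. Others among them bind RNA or act in protein quality control. In the testis the large family is transcribed in both germ cells and somatic cells. In a bulk tissue sample, fewer cells of a type and less RNA per cell cannot be told apart.

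Promoters of 4 genes with large strain differences are given first. No table used here ties a probe set to a start site. They come from RefSeq (GRCm38.p6, a C57BL/6J assembly), run 5′ to 3′ from 250 bases before the annotated start to 50 after it, and the sequences of the other strains were not analysed here. Capitals mark 5 motifs, searched on both strands. The CCAAT box was searched by its name, the GC box as GGGCGG, and the TATA box as TATAAA. ETS cores were searched as CCGGAAGT, and cyclic AMP response elements as TGACGTCA. In Zfp980 a CCAAT box and a GC box overlap.
Zfp386, chr12:116047474-116047773, plus strand: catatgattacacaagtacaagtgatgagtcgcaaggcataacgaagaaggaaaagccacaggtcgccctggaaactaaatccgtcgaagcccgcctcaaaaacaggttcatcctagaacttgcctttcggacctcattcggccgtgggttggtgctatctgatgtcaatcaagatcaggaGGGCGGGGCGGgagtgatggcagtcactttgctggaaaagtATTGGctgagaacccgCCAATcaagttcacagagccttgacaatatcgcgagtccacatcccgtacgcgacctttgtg
Zfp980, chr4:145670447-145670746, plus strand: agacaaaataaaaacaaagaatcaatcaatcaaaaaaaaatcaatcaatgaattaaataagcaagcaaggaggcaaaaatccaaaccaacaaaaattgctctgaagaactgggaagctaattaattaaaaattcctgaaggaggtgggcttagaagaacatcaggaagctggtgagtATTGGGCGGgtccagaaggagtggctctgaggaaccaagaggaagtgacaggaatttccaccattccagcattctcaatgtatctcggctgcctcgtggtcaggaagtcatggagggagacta
Zfp277, chr12:40445741-40446040, minus strand: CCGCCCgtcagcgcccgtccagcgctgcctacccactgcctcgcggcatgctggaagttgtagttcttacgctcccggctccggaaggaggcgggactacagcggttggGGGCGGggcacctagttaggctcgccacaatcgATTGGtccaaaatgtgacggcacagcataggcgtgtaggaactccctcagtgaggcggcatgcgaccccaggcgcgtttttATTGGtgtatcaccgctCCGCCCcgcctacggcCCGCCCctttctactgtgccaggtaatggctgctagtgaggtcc
Zfp39, chr11:58904176-58904475, minus strand: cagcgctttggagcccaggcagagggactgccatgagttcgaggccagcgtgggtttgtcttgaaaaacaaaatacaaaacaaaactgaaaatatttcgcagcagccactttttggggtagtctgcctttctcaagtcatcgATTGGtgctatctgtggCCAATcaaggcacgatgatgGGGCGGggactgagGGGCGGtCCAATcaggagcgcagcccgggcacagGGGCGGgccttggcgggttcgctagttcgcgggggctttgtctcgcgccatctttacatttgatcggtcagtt

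Zfp386 had 17 CG dinucleotides in this window, Zfp980 3, Zfp277 26 and Zfp39 18. RefSeq promoters were found for 127 of the 160 genes, 169 sequences in all, and their median was 18 CG dinucleotides, against 13 in 21262 promoters of protein-coding genes. GC boxes stood in 56.2% of the Zfp promoters and in 46.2% of those of protein-coding genes, and CCAAT boxes in 39.6% and 38.2%. ETS cores were found in 13.02% of the Zfp promoters and in 5.15% of protein-coding ones, and cyclic AMP response elements in 4.14% and 2.23%. TATA boxes were present in 7.1% of the Zfp promoters and in 12.6% of the protein-coding ones. Over all 32851 promoters of the table, the shares were 35.7% for GC boxes, 37.4% for CCAAT boxes, 3.89% for ETS cores, 1.79% for cyclic AMP response elements and 13.6% for TATA boxes. A match describes the letters only.

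Across the arrays, the summed intensity of the 160 genes was 33273 and 32682 units in MRL/MpJ+/+, 31545 and 30736 units in AKR/N, and 33228 and 33703 units in C57BL/6. Both AKR/N sums were the lowest of the 6. Single genes had means between 50.02 and 1989 units with a median of 119 units, and 94 reached 100 units. The median coefficient of variation between the 2 arrays of a strain was 7.7% in MRL/MpJ+/+, 6.31% in AKR/N and 8.61% in C57BL/6. Over all probe sets tested, the 2 arrays of a strain correlated at 0.98 to 0.985 and arrays of different strains at 0.96 to 0.974, across probe sets that are not independent replicates. The trimmed mean was 125.001 units on each array, and their number limits the precision.

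Called differences were counted in each comparison and set beside those of other genes. In MRL/MpJ+/+ against C57BL/6, 25 of 160 genes were called, 15 higher and 10 lower, with a median log2 fold change of 0.048 over all 160. That is 15.6% of them, and 15.6% of the 10210 genes chosen by the same rule were called too (10% of all probe sets tested). In AKR/N against C57BL/6, 18 genes were called, 5 higher and 13 lower, with a median of -0.049. The share was 11.2%, and it was 15.2% over the 10210 genes (9.97% of all probe sets). Between MRL/MpJ+/+ and AKR/N, 15 genes were called, 9 higher and 6 lower, with a median of 0.095. Here the share was 9.38%, and 11.6% over the 10210 genes (6.91% of all probe sets). The F test over the 3 strains called 36 genes, or 22.5%, and 23.8% of the 10210 genes (15.1% of all probe sets). The 3 comparisons share arrays and are not independent.

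Calls were also counted by direction. Among the Zfp genes, 3.12% were called higher and 8.12% lower in AKR/N against C57BL/6, while over the 10210 genes 8.29% were higher and 6.9% lower (5.09% and 4.88% of all probe sets). For MRL/MpJ+/+ against C57BL/6 the shares were 9.38% higher and 6.25% lower, against 7.97% and 7.64% over the 10210 genes (5.07% and 4.95% of all probe sets). The balance of this comparison turned over in some settings, with 4 higher and 8 lower without MRL/MpJ+/+ replicate 1, 7 higher and 12 lower without C57BL/6 replicate 2, and 6 higher and 8 lower without a variance trend. For MRL/MpJ+/+ against AKR/N they were 5.62% and 3.75%, against 4.92% and 6.7% (3.22% and 3.69% of all probe sets). When arrays were centred on their medians, the counts in AKR/N against C57BL/6 were 7 higher and 11 lower. After quantile normalization those in MRL/MpJ+/+ against AKR/N were 5 higher and 7 lower. In the 122 genes with every array at 50 units or more, MRL/MpJ+/+ against C57BL/6 had 12 higher and 5 lower. For these genes AKR/N against C57BL/6 had 3 higher and 7 lower, and MRL/MpJ+/+ against AKR/N 8 and 4. Regardless of calls, both MRL/MpJ+/+ arrays exceeded both of C57BL/6 in 50 Zfp genes and were below both in 42, where the 10210 genes gave 33% and 27.5%. AKR/N exceeded C57BL/6 in this way in 31 and was below it in 48 (31.7% and 27.9% of the 10210). MRL/MpJ+/+ exceeded AKR/N in 65 and was below it in 30 (31.4% and 28.8%).

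Both AKR/N arrays lay above the other 4 in 9 genes, or 5.62%, and below them in 28, or 17.5%, where the 10210 genes gave 15.2% and 14.8%. Both MRL/MpJ+/+ arrays lay above the other 4 in 33 genes (20.6%, against 17% of the 10210) and below in 20 (12.5%, against 15.4%). Both C57BL/6 arrays lay above the others in 27 genes (16.9%, against 14.6%) and below in 20 (12.5%, against 18.5%). Whether these shares differ from those of other genes was not tested.

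**Figure D1:**
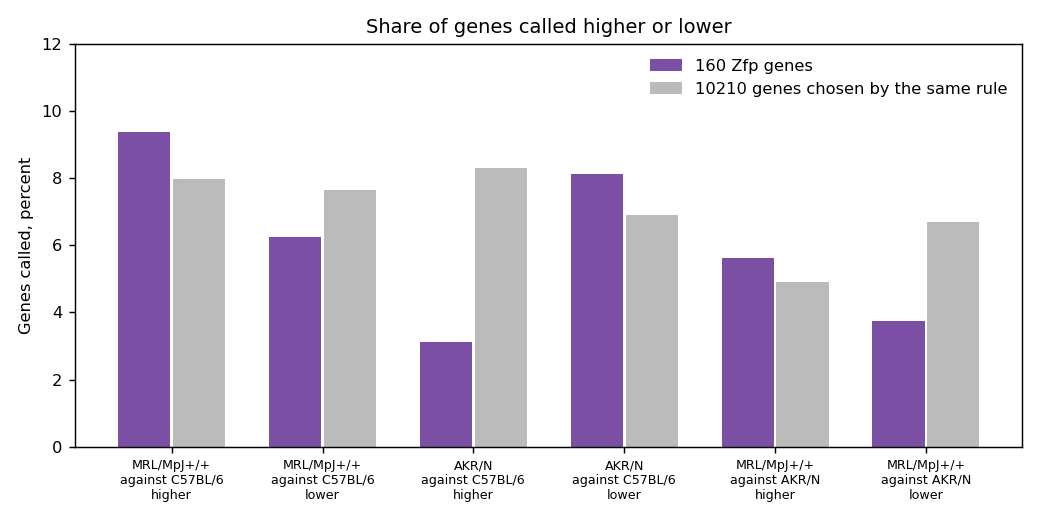
Percent of genes called higher or lower (vertical axis, from 0) in each of the 3 comparisons, for the 160 Zfp genes (purple) and for the 10210 genes chosen by the same rule (grey). In AKR/N against C57BL/6, 3.12% of the Zfp genes were called higher, against 8.29% of the 10210 genes.

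Leaving out some single arrays lowered the counts. Of the 25 genes called in MRL/MpJ+/+ against C57BL/6, 12 were still called once MRL/MpJ+/+ replicate 1 was left out, 13 once MRL/MpJ+/+ replicate 2 was, and 15 once C57BL/6 replicate 2 was. Of the 18 called in AKR/N against C57BL/6, leaving out AKR/N replicate 2 kept 7, and leaving out C57BL/6 replicate 2 kept 11. Of the 15 called in MRL/MpJ+/+ against AKR/N, 6 held with either MRL/MpJ+/+ array left out, 3 with AKR/N replicate 1 left out and 4 with AKR/N replicate 2 left out. Leaving out MRL/MpJ+/+ replicate 2 kept the size of the count of AKR/N against C57BL/6, but not all of its genes. The same held for MRL/MpJ+/+ against AKR/N when C57BL/6 replicate 2 was left out. For single genes below, the text says in how many of 16 alternative settings the call was kept (15 for the corepressor genes), which arrays ended it when left out, and the adjusted p without them. Among these settings is the mean of all of a gene's probe sets, those too dim to be tested included. For the 74 members with a single probe set it gives the same fold change. Some settings leave out an array of the strain not compared. The counts are thus not alike between genes.

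Zfp991 showed the largest difference of any Zfp gene by log2 fold change, in the order C57BL/6, AKR/N, MRL/MpJ+/+ from high to low. Its probe set read 207 and 202 units in MRL/MpJ+/+, 383 and 386 units in AKR/N and 1134 and 1194 units in C57BL/6. The 3 pairs of arrays did not overlap. The gene was lower in MRL/MpJ+/+ than in C57BL/6 (log2 fold change -2.42, SE 0.0796, adjusted p = 4.46e-08) and lower in AKR/N than in C57BL/6 (log2 fold change -1.56, SE 0.0796, adjusted p = 9.15e-07). It was also lower in MRL/MpJ+/+ than in AKR/N (log2 fold change -0.86, SE 0.0796, adjusted p = 1.02e-04). All 3 calls were kept in 16 of 16 alternative settings. Of its other probe sets, the dimmest read 16.1 and 17.0 units in MRL/MpJ+/+, 28.5 and 24.3 in AKR/N and 355 and 274 in C57BL/6. The remaining one read 88.9 and 96.6, 248 and 129, and 442 and 347 units in that order of strains. Both were called lower in MRL/MpJ+/+ (-3.33 and -1.91) and in AKR/N (-2.95 and -1.06) than in C57BL/6.

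Zfp980 lies close to Zfp991 in RefSeq gene order, with 7 protein-coding genes between them, of which 6 are also named Zfp. It read 26.9 and 34.9 units in MRL/MpJ+/+, 44.9 and 51.9 units in AKR/N and 104 and 109.8 units in C57BL/6. Both C57BL/6 arrays were above the other 4, and those of MRL/MpJ+/+ were the lowest. It fell in MRL/MpJ+/+ against C57BL/6 (log2 fold change -1.40, SE 0.165, adjusted p = 4.04e-04) and in AKR/N against C57BL/6 (log2 fold change -0.93, SE 0.165, adjusted p = 0.00503), and both calls were kept in 16 of 16 alternative settings. Between MRL/MpJ+/+ and AKR/N the difference of -0.46 had adjusted p = 0.138. No other tested probe set names this gene alone.

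Zfp386, which encodes a KRAB zinc finger protein, read 58.5 and 42.1 units in MRL/MpJ+/+, 54.9 and 31.0 units in AKR/N and 205 and 215 units in C57BL/6. Each of the C57BL/6 values was more than 3 times the highest value of the other strains. The fall was -1.78 in MRL/MpJ+/+ (SE 0.201, adjusted p = 2.87e-04) and -1.97 in AKR/N (SE 0.201, adjusted p = 1.45e-04), with each call kept in 16 of 16 alternative settings. Between MRL/MpJ+/+ and AKR/N it differed by 0.19, adjusted p = 0.684. A dimmer probe set read 54.1 and 34.5 units in MRL/MpJ+/+, 40.9 and 34.0 in AKR/N, and 92.7 and 98.7 in C57BL/6, and was called lower as well (-0.91 and -1.07).

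Zfp593, whose yeast relative helps to export large ribosomal subunits from the nucleus, read 59.6 and 51.0 units in MRL/MpJ+/+, 65.9 and 42.8 units in AKR/N and 130.1 and 156 units in C57BL/6. The C57BL/6 arrays stood above the other 4. The gene was called lower in MRL/MpJ+/+ (-1.16, adjusted p = 0.00254), a call kept in 15 of 16 alternative settings. In AKR/N it was called lower too (-1.19, adjusted p = 0.00211), a call kept in 16 of 16 alternative settings. Its probe set is of a class that can bind several transcripts. The gene's other probe set, between 27.0 and 36.9 units on every array, differed by 0.0079 and -0.05 in these comparisons (adjusted p = 0.988 and 0.922).

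Zfp617 read 90.6 and 72.5 units in MRL/MpJ+/+, 89.2 and 80.3 units in AKR/N and 168 and 140.2 units in C57BL/6. It fell in MRL/MpJ+/+ (log2 fold change -0.80, SE 0.146, adjusted p = 0.00592), a call kept in 14 of 16 alternative settings, with adjusted p = 0.0562 without MRL/MpJ+/+ replicate 2. It fell in AKR/N (log2 fold change -0.75, SE 0.146, adjusted p = 0.00859), kept in 12 of 16 alternative settings, with adjusted p between 0.0568 and 0.0751 without AKR/N replicate 2 or C57BL/6 replicate 1. Its other probe set went the opposite way without a call, by 0.45 and 0.32 (adjusted p = 0.311 and 0.499).

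Zfp458 read 48.8 and 61.9 units in MRL/MpJ+/+, 51.8 and 46.5 units in AKR/N and 119.8 and 76.5 units in C57BL/6. The C57BL/6 arrays were the highest, and the other strains overlapped. It fell in AKR/N against C57BL/6 (-0.78, adjusted p = 0.0308), a call kept in 10 of 16 alternative settings, with adjusted p between 0.102 and 0.161 without AKR/N replicate 1, AKR/N replicate 2 or C57BL/6 replicate 1. In MRL/MpJ+/+ against C57BL/6 it differed by -0.66, adjusted p = 0.0624.

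**Figure D2:**
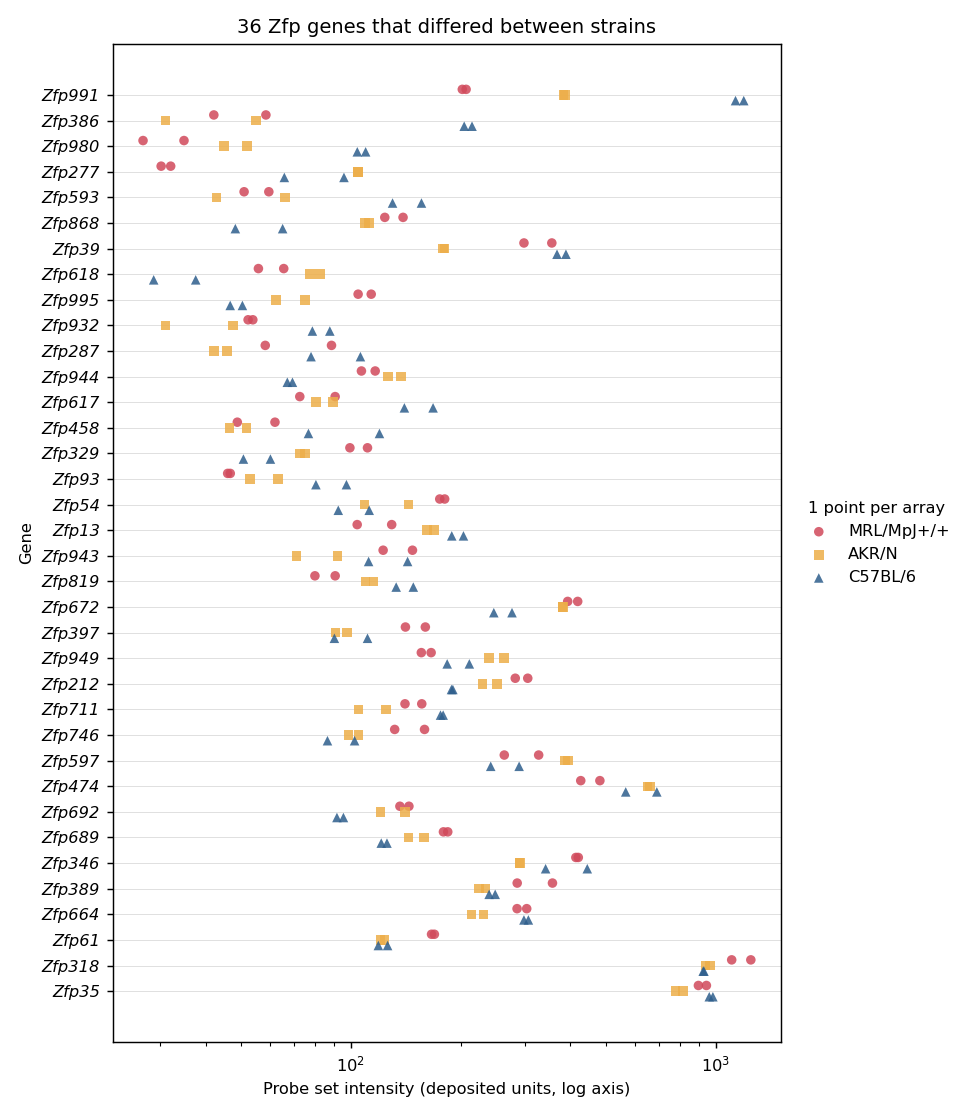
Probe set intensity (horizontal log axis, deposited units) of the 36 Zfp genes called by the F test over the 3 strains, 1 row per gene and 1 point per array, ordered by largest log2 fold change. Zfp991 reads 1134 and 1194 units in C57BL/6 at the top, and Zfp35 at the bottom spans 777 to 983 units over all 6 arrays.

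Other genes were lower in C57BL/6 than elsewhere. Zfp868 read 139 and 124 units in MRL/MpJ+/+, 109 and 112 units in AKR/N and 65.0 and 48.2 units in C57BL/6. Both arrays of C57BL/6 lay below the other 4. Zfp868 rose in MRL/MpJ+/+ (log2 fold change 1.03, SE 0.148, adjusted p = 0.00146), the largest rise of the 160 genes there, a call kept in 16 of 16 alternative settings. It rose in AKR/N as well (log2 fold change 0.81, SE 0.148, adjusted p = 0.00587), a call kept in 15 of 16 alternative settings, with adjusted p = 0.0525 without AKR/N replicate 2. No other probe set of Zfp868 was tested.

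Zfp672 and Zfp692 are direct neighbours among protein-coding genes, and both had their lowest values in C57BL/6. Zfp672 read 419 and 393 units in MRL/MpJ+/+, 381 and 380.1 units in AKR/N and 247 and 277 units in C57BL/6. A rise was called in MRL/MpJ+/+ (0.61, adjusted p = 0.00204), a call kept in 16 of 16 alternative settings, and in AKR/N (0.52, adjusted p = 0.00519), a call kept in 15 of 16 alternative settings. Zfp692 read 144 and 136 units in MRL/MpJ+/+, 120.5 and 141 units in AKR/N and 91.6 and 95.4 units in C57BL/6. It was called in MRL/MpJ+/+ against C57BL/6 (0.51, adjusted p = 0.0251), a call kept in 11 of 16 alternative settings, with adjusted p between 0.0696 and 0.146 without MRL/MpJ+/+ replicate 1, MRL/MpJ+/+ replicate 2, C57BL/6 replicate 1 or C57BL/6 replicate 2. It differed by 0.42 in AKR/N against C57BL/6 (adjusted p = 0.0594).

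Zfp618, a chromatin protein that recognises 5-hydroxymethylcytosine, read 65.5 and 55.8 units in MRL/MpJ+/+, 77.3 and 82.2 units in AKR/N and 37.6 and 28.8 units in C57BL/6. It rose in AKR/N (log2 fold change 0.97, SE 0.168, adjusted p = 0.00465), a call kept in 14 of 16 alternative settings, with adjusted p = 0.0525 without AKR/N replicate 2. It rose in MRL/MpJ+/+ (0.64, adjusted p = 0.0358), a call kept in 7 of 16 alternative settings, with adjusted p between 0.0638 and 0.198 without MRL/MpJ+/+ replicate 1, MRL/MpJ+/+ replicate 2, AKR/N replicate 1, AKR/N replicate 2 or C57BL/6 replicate 2. Its other tested probe sets differed by 0.052 and 0.25 in AKR/N and by 0.34 and -0.055 in MRL/MpJ+/+, without a call. Averaged over all its probe sets, untested ones included, the differences were 0.24 in AKR/N and 0.066 in MRL/MpJ+/+, both without a call.

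Zfp944 read 117 and 107 units in MRL/MpJ+/+, 127 and 137 units in AKR/N and 69.2 and 67.0 units in C57BL/6. The C57BL/6 arrays were the lowest. It was called higher in AKR/N (0.81, adjusted p = 0.00232), a call kept in 15 of 16 alternative settings, and in MRL/MpJ+/+ (0.60, adjusted p = 0.0125), a call kept in 13 of 16 alternative settings, with adjusted p between 0.0521 and 0.0976 without MRL/MpJ+/+ replicate 1 or C57BL/6 replicate 2. Another probe set of 92.8 units on average differed the opposite way by -0.49 and -0.2, without a call.

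AKR/N stood apart for a further set of genes, mostly with the lowest values. Zfp39, of the germ cell and testis list, read 356 and 298 units in MRL/MpJ+/+, 180.5 and 179 units in AKR/N and 389 and 367 units in C57BL/6. Both AKR/N arrays were below the other 4, at about the same value. Zfp39 fell in AKR/N against C57BL/6 (log2 fold change -1.01, SE 0.104, adjusted p = 1.51e-04), a call kept in 16 of 16 alternative settings, and was higher in MRL/MpJ+/+ than in AKR/N (log2 fold change 0.80, SE 0.104, adjusted p = 0.00109), a call kept in 15 of 16 alternative settings. The exception was the fit without a variance trend, where adjusted p = 0.0519. MRL/MpJ+/+ and C57BL/6 differed by -0.21, adjusted p = 0.259. Its second probe set read 217 and 196 units in MRL/MpJ+/+, 72.2 and 44.5 in AKR/N, and 266 and 259 in C57BL/6. It was called in the same directions by -1.93 and 1.60.

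Zfp346, which binds double-stranded RNA, read 414 and 420.2 units in MRL/MpJ+/+, 291 and 290.3 units in AKR/N and 342 and 445 units in C57BL/6. The AKR/N arrays were the lowest. It was higher in MRL/MpJ+/+ than in AKR/N (log2 fold change 0.50, SE 0.114, adjusted p = 0.0262), a call kept in 10 of 16 alternative settings, with adjusted p between 0.114 and 0.141 without MRL/MpJ+/+ replicate 1, MRL/MpJ+/+ replicate 2, AKR/N replicate 1 or AKR/N replicate 2. It was lower in AKR/N than in C57BL/6 (log2 fold change -0.41, SE 0.114, adjusted p = 0.0486), a call kept in 6 of 16 alternative settings, with adjusted p between 0.0715 and 0.262 without MRL/MpJ+/+ replicate 1, MRL/MpJ+/+ replicate 2, AKR/N replicate 1, AKR/N replicate 2 or C57BL/6 replicate 2. A second probe set was called in the same directions, by 0.73 (adjusted p = 0.0166) and -0.55 (adjusted p = 0.0453).

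Zfp711, an X-linked activator whose human relative is mutated in intellectual disability, read 141 and 156 units in MRL/MpJ+/+, 125 and 105 units in AKR/N and 179 and 176 units in C57BL/6. It fell in AKR/N against C57BL/6 (-0.57, adjusted p = 0.0139), a call kept in 11 of 16 alternative settings, with adjusted p between 0.0537 and 0.120 without AKR/N replicate 2, C57BL/6 replicate 1 or C57BL/6 replicate 2. Zfp664 read 303 and 286, 231 and 214 and 307 and 298 units in that order of strains. It was lower in AKR/N than in C57BL/6 (-0.42, adjusted p = 0.0175), a call kept in 10 of 16 alternative settings, with adjusted p between 0.0562 and 0.132 without AKR/N replicate 1, AKR/N replicate 2, C57BL/6 replicate 1 or C57BL/6 replicate 2. It was higher in MRL/MpJ+/+ than in AKR/N (0.38, adjusted p = 0.0358), a call kept in 9 of 16 alternative settings, with adjusted p between 0.0955 and 0.226 without MRL/MpJ+/+ replicate 1, MRL/MpJ+/+ replicate 2, AKR/N replicate 1 or AKR/N replicate 2. Its other probe set differed by 0.099 in AKR/N against C57BL/6 and by 0.13 in MRL/MpJ+/+ against AKR/N, without a call. Averaged over both, Zfp664 differed by -0.16 (adjusted p = 0.51) and 0.25 (adjusted p = 0.306).

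Zfp597, whose human counterpart is imprinted, had the highest values of its brightest probe set in AKR/N. That probe set read 327 and 263 units in MRL/MpJ+/+, 394 and 387 units in AKR/N and 289 and 242 units in C57BL/6. MRL/MpJ+/+ and C57BL/6 overlapped. It rose in AKR/N against C57BL/6 (log2 fold change 0.53, SE 0.119, adjusted p = 0.0174), a call kept in 11 of 16 alternative settings, with adjusted p between 0.0929 and 0.128 without AKR/N replicate 1, AKR/N replicate 2 or C57BL/6 replicate 2. A second probe set of Zfp597 read 177 and 184 units in MRL/MpJ+/+, 182 and 141 units in AKR/N and 169 and 198 units in C57BL/6, a difference of -0.17 in AKR/N against C57BL/6. The remaining one differed by 0.097, and neither was called.

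Zfp287 read 88.5 and 58.3 units in MRL/MpJ+/+, 45.8 and 42.2 units in AKR/N and 77.8 and 106 units in C57BL/6. It fell in AKR/N against C57BL/6 (-0.84, adjusted p = 0.0225), a call kept in 10 of 16 alternative settings, with adjusted p between 0.0876 and 0.165 without AKR/N replicate 1, AKR/N replicate 2 or C57BL/6 replicate 2.

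MRL/MpJ+/+ stood apart for Zfp277, a zinc finger protein that represses Cdkn2a together with Polycomb proteins. It read 30.2 and 32.1 units in MRL/MpJ+/+, 105 and 105 units in AKR/N and 65.7 and 95.7 units in C57BL/6. Both MRL/MpJ+/+ arrays were the lowest. It fell in MRL/MpJ+/+ against AKR/N (log2 fold change -1.36, SE 0.173, adjusted p = 0.00103) and against C57BL/6 (log2 fold change -1.02, SE 0.173, adjusted p = 0.00404), each in 16 of 16 alternative settings. A second probe set of 51.1 units on average differed by -0.058 and -0.43, without a call (adjusted p = 0.917 and 0.184).

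Zfp474, a zinc finger gene described from testis, read 427 and 482 units in MRL/MpJ+/+, 661 and 649.5 units in AKR/N and 689.8 and 567 units in C57BL/6. The MRL/MpJ+/+ arrays were the lowest, and AKR/N and C57BL/6 overlapped. It fell in MRL/MpJ+/+ against AKR/N (-0.52, adjusted p = 0.0130), a call kept in 12 of 16 alternative settings, with adjusted p between 0.0849 and 0.104 without MRL/MpJ+/+ replicate 1, AKR/N replicate 1 or AKR/N replicate 2, and against C57BL/6 (-0.45, adjusted p = 0.0185), a call kept in 13 of 16 alternative settings, with adjusted p between 0.104 and 0.138 without MRL/MpJ+/+ replicate 1 or C57BL/6 replicate 1.

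Among the genes highest in MRL/MpJ+/+, Zfp995 read 114 and 105 units in MRL/MpJ+/+, 74.8 and 62.3 units in AKR/N and 46.7 and 50.4 units in C57BL/6. The strains did not overlap. A rise was called in MRL/MpJ+/+ against C57BL/6 (log2 fold change 0.96, SE 0.148, adjusted p = 0.00231), a call kept in 15 of 16 alternative settings. Against AKR/N it rose as well (0.57, adjusted p = 0.0451), a call kept in 7 of 16 alternative settings, with adjusted p between 0.0940 and 0.275 without MRL/MpJ+/+ replicate 1, MRL/MpJ+/+ replicate 2, AKR/N replicate 1 or AKR/N replicate 2. A second probe set differed by -0.029 and 0.36 without a call.

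Zfp746, whose protein Paris represses Ppargc1a and is a substrate of parkin, read 159 and 132 units in MRL/MpJ+/+, 105 and 98.7 units in AKR/N and 102 and 86.3 units in C57BL/6. It rose in MRL/MpJ+/+ against C57BL/6 (0.55, adjusted p = 0.0295), a call kept in 11 of 16 alternative settings, with adjusted p between 0.0501 and 0.206 without MRL/MpJ+/+ replicate 1, MRL/MpJ+/+ replicate 2 or C57BL/6 replicate 2. Its near neighbour Zfp212 read 282 and 305 units in MRL/MpJ+/+, 229 and 251 units in AKR/N and 190.4 and 189 units in C57BL/6. Zfp212 rose in MRL/MpJ+/+ against C57BL/6 (0.59, adjusted p = 0.00363), a call kept in 16 of 16 alternative settings.

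Of the other named rises in MRL/MpJ+/+ against C57BL/6, Zfp329 (0.76, adjusted p = 0.00733) was called in 14 of 16 alternative settings, and Zfp54 (0.72, adjusted p = 0.0105) in 11 of 16 alternative settings, with adjusted p between 0.0574 and 0.0727 without MRL/MpJ+/+ replicate 1, MRL/MpJ+/+ replicate 2 or C57BL/6 replicate 2. Zfp397 (0.52, adjusted p = 0.0361) was called in 6 of 16 alternative settings, with adjusted p between 0.0542 and 0.209 without MRL/MpJ+/+ replicate 1, MRL/MpJ+/+ replicate 2, AKR/N replicate 1, AKR/N replicate 2 or C57BL/6 replicate 1. Zfp397 was also higher in MRL/MpJ+/+ than in AKR/N (0.60, adjusted p = 0.0257), a call kept in 9 of 16 alternative settings, with adjusted p between 0.0777 and 0.173 without MRL/MpJ+/+ replicate 1, MRL/MpJ+/+ replicate 2, AKR/N replicate 1 or AKR/N replicate 2. The second probe set of Zfp397 differed by -0.17 in MRL/MpJ+/+ against C57BL/6 and by 0.077 in MRL/MpJ+/+ against AKR/N, without a call. Zfp329 and Zfp54 differed by 0.14 and 0.13 as the mean of all their probe sets, untested ones included, without a call. The other tested probe set of Zfp329 differed by 0.19 without a call, and Zfp54 had no other tested probe set.

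Of the other falls in MRL/MpJ+/+ against C57BL/6, Zfp93 (-0.74, adjusted p = 0.0146) was called in 12 of 16 alternative settings, with adjusted p between 0.0689 and 0.0934 without MRL/MpJ+/+ replicate 1, MRL/MpJ+/+ replicate 2 or C57BL/6 replicate 2. Zfp13 (-0.68, adjusted p = 0.00568) was called in 14 of 16 alternative settings, with adjusted p = 0.0543 without MRL/MpJ+/+ replicate 2.

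Against AKR/N, Zfp943 rose in MRL/MpJ+/+ (0.64, adjusted p = 0.0403), a call kept in 8 of 16 alternative settings, with adjusted p between 0.0585 and 0.267 without MRL/MpJ+/+ replicate 1, MRL/MpJ+/+ replicate 2, AKR/N replicate 1 or AKR/N replicate 2. Zfp956 rose (0.50, adjusted p = 0.0448), a call kept in 10 of 16 alternative settings, with adjusted p between 0.0926 and 0.290 without MRL/MpJ+/+ replicate 2, AKR/N replicate 1 or AKR/N replicate 2. The transcribed pseudogene Zfp389 rose (0.45, adjusted p = 0.0382), a call kept in 9 of 16 alternative settings, with adjusted p between 0.132 and 0.259 without MRL/MpJ+/+ replicate 1, AKR/N replicate 1 or AKR/N replicate 2. Zfp87 fell (-0.66, adjusted p = 0.0451), a call kept in 10 of 16 alternative settings, with adjusted p between 0.129 and 0.221 without MRL/MpJ+/+ replicate 1, MRL/MpJ+/+ replicate 2, AKR/N replicate 1 or AKR/N replicate 2.

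In MRL/MpJ+/+ against AKR/N, Zfp949 and Zfp24 each had a second probe set called in the opposite direction. Zfp949 read 166 and 156 units in MRL/MpJ+/+ and 263 and 239 units in AKR/N (-0.59, adjusted p = 0.00951), but its other probe set read 73.0 and 80.1 against 39.4 and 38.7 units and was called higher (0.75, adjusted p = 0.0265). The call of the brightest probe set was kept in 12 of 16 alternative settings, with adjusted p between 0.0776 and 0.0877 without MRL/MpJ+/+ replicate 2 or AKR/N replicate 1. As the mean of both probe sets Zfp949 differed by 0.077 (adjusted p = 0.81). Zfp24 read 142 and 111 units in MRL/MpJ+/+ and 191 and 178 units in AKR/N (-0.50, adjusted p = 0.0421), a call kept in 6 of 16 alternative settings, with adjusted p between 0.0509 and 0.274 without MRL/MpJ+/+ replicate 2, AKR/N replicate 1, AKR/N replicate 2, C57BL/6 replicate 1 or C57BL/6 replicate 2. Of its 5 other probe sets, 1 was called higher by 0.83 and 1 lower by -0.79.

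**Figure D3:**
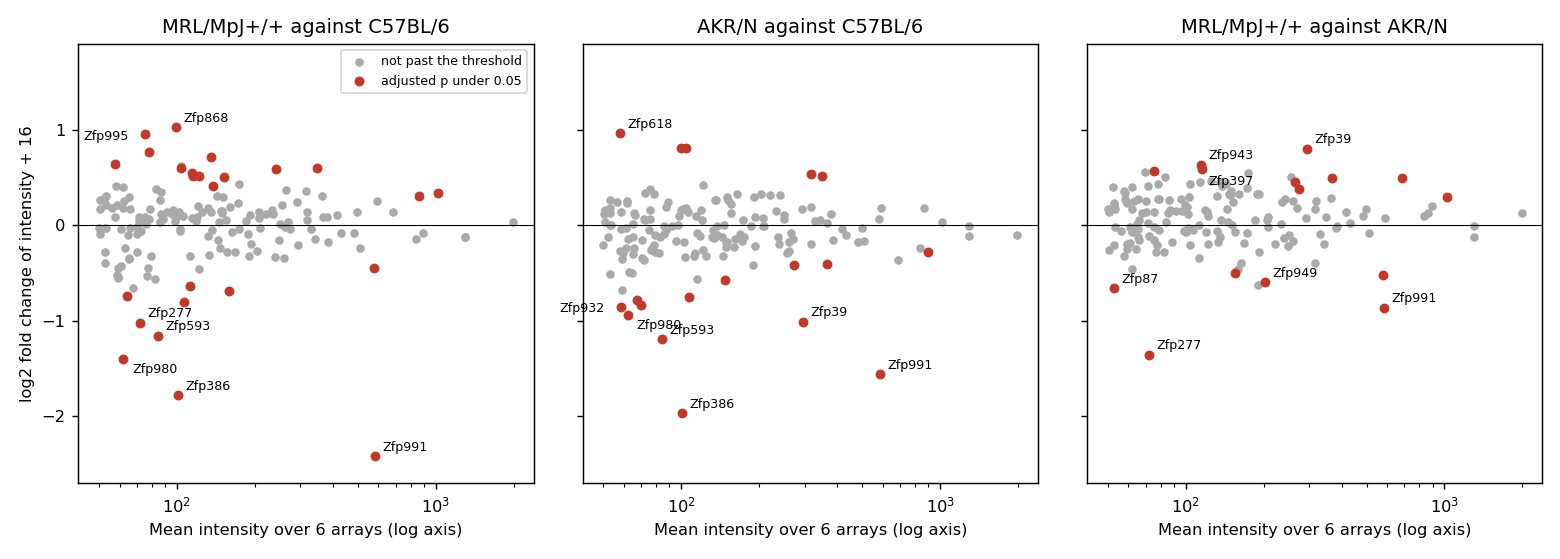
Log2 fold change of intensity + 16 (vertical axis) against mean intensity over the 6 arrays (horizontal log axis) for the 160 Zfp genes in each comparison, with called genes in red and the 7 largest named. Zfp991 and Zfp386 lie lowest in both comparisons with C57BL/6, and Zfp277 lies lowest in MRL/MpJ+/+ against AKR/N.

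The probe set that represents a gene is the brightest, and the agreement of its fellows varied. Among the 25 genes called in MRL/MpJ+/+ against C57BL/6, 14 had other tested probe sets, which all went the same way in 6 genes and included an opposite one in 8. A second probe set was called in the same direction for 2 of them, Zfp991 and Zfp386. In AKR/N against C57BL/6, 10 of 18 had others, all the same way in 6, and a second call the same way in 4. These were Zfp991, Zfp386, Zfp39 and Zfp346. Of the 15 called in MRL/MpJ+/+ against AKR/N, 11 had others, all the same way in 8, with a second call the same way in 4 (Zfp991, Zfp39, Zfp346 and Zfp24) and a call the opposite way in 2 (Zfp949 and Zfp24). As the mean of all of a gene's probe sets, those too dim to be tested included, 14, 12 and 9 genes were called in the 3 comparisons.

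With that mean, calls lost in MRL/MpJ+/+ against C57BL/6 included Zfp593 (-0.57, adjusted p = 0.0575), Zfp617 (-0.18, adjusted p = 0.63), Zfp93 (-0.54, adjusted p = 0.101), Zfp944 (0.094, adjusted p = 0.782), Zfp995 (0.46, adjusted p = 0.087) and Zfp397 (0.35, adjusted p = 0.247). In AKR/N against C57BL/6 they included Zfp287 (-0.31, adjusted p = 0.502), Zfp458 (-0.62, adjusted p = 0.117), Zfp597 (0.26, adjusted p = 0.261), Zfp617 (-0.22, adjusted p = 0.555), Zfp711 (-0.43, adjusted p = 0.161) and Zfp944 (0.069, adjusted p = 0.855). Of these, Zfp287, Zfp458 and Zfp711 had no other tested probe set, so their means changed only through probe sets too dim to be tested. Between MRL/MpJ+/+ and AKR/N they included Zfp24 (-0.22, adjusted p = 0.538), Zfp397 (0.38, adjusted p = 0.252), Zfp943 (0.5, adjusted p = 0.132) and Zfp995 (0.47, adjusted p = 0.106).

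**Figure D4:**
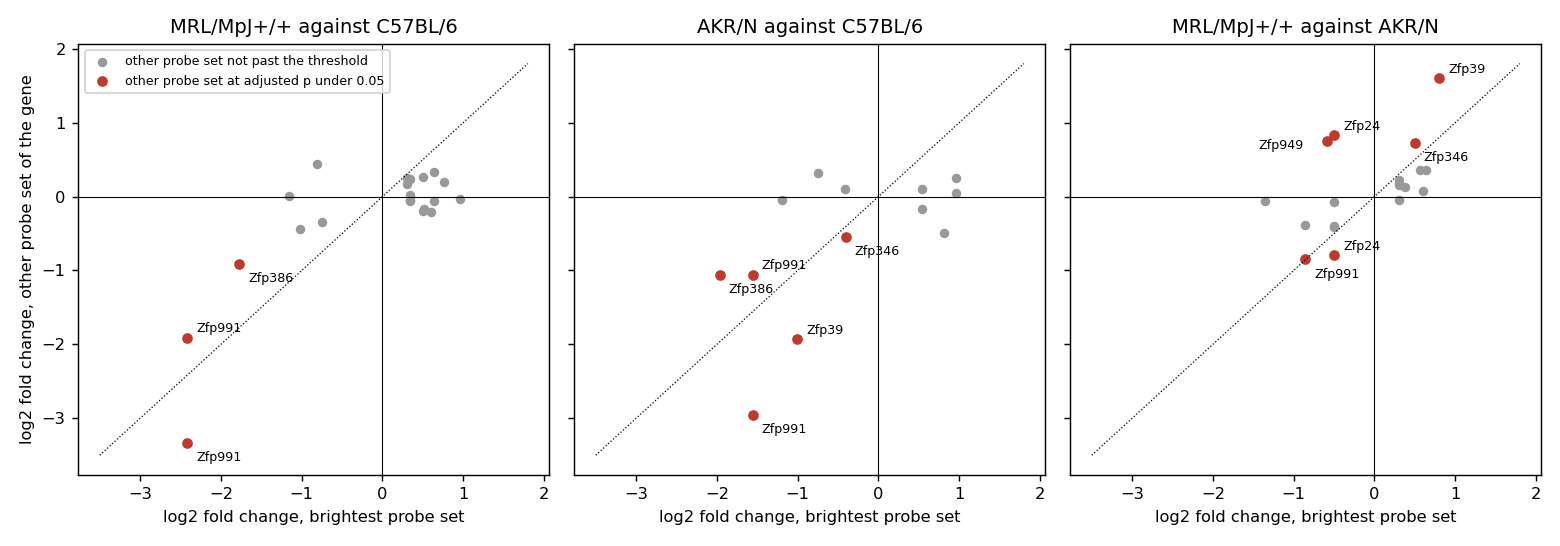
Log2 fold change of each other tested probe set (vertical axis) against that of the brightest probe set (horizontal axis) for called Zfp genes in each comparison. The dotted line marks equal values, and red points are other probe sets at adjusted p under 0.05. Zfp991, Zfp386, Zfp39 and Zfp346 lie in the same quadrant on both axes, while Zfp949 and 1 probe set of Zfp24 lie opposite.

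Among genes known for germ cells and testis, Zfp39 had the largest difference. Of 12 genes in this list 9 were members; Zfp29, Zfp38 and Zfp645 were not. In MRL/MpJ+/+ against C57BL/6, 1 rose and none fell, with a median of -0.078. In AKR/N against C57BL/6 none rose and 2 fell (median -0.12), and in MRL/MpJ+/+ against AKR/N 2 rose and none fell (median 0.095). For this list and those below, the shares over the 10210 genes were 7.97% higher and 7.64% lower in MRL/MpJ+/+ against C57BL/6, 8.29% and 6.9% in AKR/N against C57BL/6, and 4.92% and 6.7% in MRL/MpJ+/+ against AKR/N. Their medians were 0.026, 0.012 and 0.015. With so few genes a list, nothing is read from these counts. Zfp318, a large zinc finger protein of testis and lymphocytes, read 1249 and 1107 units in MRL/MpJ+/+, 966 and 937 units in AKR/N and 929 and 924 units in C57BL/6. A rise was called in MRL/MpJ+/+ against C57BL/6 (log2 fold change 0.34, SE 0.0761, adjusted p = 0.0181), a call kept in 11 of 16 alternative settings, with adjusted p between 0.0645 and 0.150 without MRL/MpJ+/+ replicate 1, C57BL/6 replicate 1 or C57BL/6 replicate 2. It rose against AKR/N (log2 fold change 0.30, SE 0.0761, adjusted p = 0.0411), a call kept in 7 of 16 alternative settings, with adjusted p between 0.0503 and 0.254 without MRL/MpJ+/+ replicate 1, AKR/N replicate 1, AKR/N replicate 2, C57BL/6 replicate 1 or C57BL/6 replicate 2. None of its 4 other probe sets was called in either comparison, and the average over its probe sets differed by 0.1 and 0.17.

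Zfp35, expressed in meiotic spermatocytes, read 897 and 943 units in MRL/MpJ+/+, 777 and 814 units in AKR/N and 960.5 and 983 units in C57BL/6. AKR/N was lowest, and it fell there against C57BL/6 (log2 fold change -0.28, SE 0.0708, adjusted p = 0.0296), a call kept in 10 of 16 alternative settings, with adjusted p between 0.0656 and 0.186 without AKR/N replicate 1, AKR/N replicate 2, C57BL/6 replicate 1 or C57BL/6 replicate 2. Zfp541, a meiotic chromatin protein needed for the exit from pachytene, read 821 and 828 units in MRL/MpJ+/+, 744 and 799 units in AKR/N and 891 and 937 units in C57BL/6. The C57BL/6 arrays were the highest, and the difference of AKR/N from C57BL/6 was -0.24, adjusted p = 0.0663. Zfp105 read 484 and 459 units in MRL/MpJ+/+, 491 and 504 units in AKR/N and 561 and 557 units in C57BL/6, and its difference in MRL/MpJ+/+ against C57BL/6 was -0.24, adjusted p = 0.0821.

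Zfp37, a gene of haploid germ cells, read 1258 and 1186 units in MRL/MpJ+/+, 1486 and 1188 units in AKR/N and 1433 and 1236 units in C57BL/6, with overlapping strains. Zfp42, also called Rex1, read 155 and 142 units in MRL/MpJ+/+, 139 and 149.6 units in AKR/N and 146 and 143 units in C57BL/6. These strains overlapped too, as did those of Zfp59. Zfp628, needed for spermatids, had 1 MRL/MpJ+/+ array at the bottom, with 63.7 and 82.4 units in MRL/MpJ+/+, 83.8 and 80.7 units in AKR/N and 70.8 and 72.5 units in C57BL/6.

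**Figure D5:**
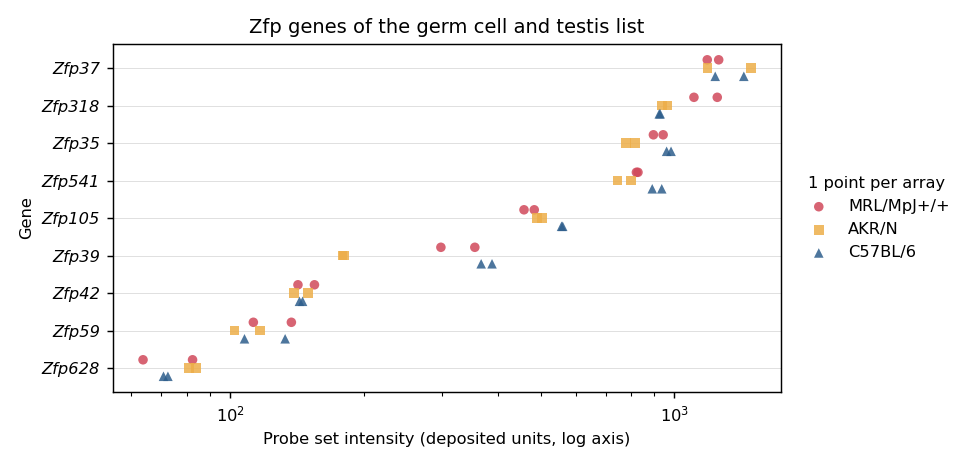
Probe set intensity (horizontal log axis, deposited units) of the 9 members of the germ cell and testis list, 1 point per array. The AKR/N arrays of Zfp39 stand at 180.5 and 179 units, left of the other 4 arrays of that gene, while the strains of Zfp37 and Zfp42 overlap.

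Among genes of genomic imprints and retroelements, 5 of 7 were members, and Zfp57 and Zfp708 were not. None rose in any comparison, 1 fell in MRL/MpJ+/+ against C57BL/6 (median -0.027), 1 fell in AKR/N against C57BL/6 (median -0.092), and none was called between MRL/MpJ+/+ and AKR/N (median 0.13). Zfp819, which represses endogenous retroviruses in pluripotent cells, read 90.6 and 79.7 units in MRL/MpJ+/+, 109.6 and 115 units in AKR/N and 148 and 133 units in C57BL/6. The strains did not overlap, and it fell in MRL/MpJ+/+ against C57BL/6 (log2 fold change -0.63, SE 0.127, adjusted p = 0.00998), a call kept in 14 of 16 alternative settings, with adjusted p between 0.0580 and 0.0792 without MRL/MpJ+/+ replicate 2 or C57BL/6 replicate 1. Zfp932, another repressor of endogenous retroviruses, read 53.9 and 52.3 units in MRL/MpJ+/+, 47.5 and 31.1 units in AKR/N and 78.4 and 87.6 units in C57BL/6. It fell in AKR/N against C57BL/6 (log2 fold change -0.86, SE 0.181, adjusted p = 0.0134), a call kept in 13 of 16 alternative settings, with adjusted p between 0.0928 and 0.112 without AKR/N replicate 2 or C57BL/6 replicate 2. Zfp809, which binds the primer site of murine leukaemia viruses, read 90.4 and 88.0 units in MRL/MpJ+/+, 82.1 and 78.1 units in AKR/N and 70.4 and 105 units in C57BL/6, with C57BL/6 spanning the other strains. Zfp445, a guardian of imprints, read 469.9 and 417 units in MRL/MpJ+/+, 409 and 389 units in AKR/N and 396 and 421 units in C57BL/6, and its fold changes lay between -0.033 and 0.14. Zfp568, a repressor of Igf2, was near the limit at 52.9 units on average and had no call.

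Of 13 genes that act on RNA, translation or ubiquitin, 10 were members. In MRL/MpJ+/+ against C57BL/6 1 rose and none fell (median 0.15), in AKR/N against C57BL/6 none rose and 1 fell (median 0.089), and in MRL/MpJ+/+ against AKR/N 1 rose and none fell (median 0.078). The last pair of calls was that of Zfp346. Zfp91, a ubiquitin ligase of NF-kappaB signalling, read 963 and 939 units in MRL/MpJ+/+, 909.7 and 833 units in AKR/N and 798 and 737 units in C57BL/6. It rose in MRL/MpJ+/+ against C57BL/6 (log2 fold change 0.30, SE 0.0773, adjusted p = 0.0315), a call kept in 10 of 16 alternative settings, with adjusted p between 0.107 and 0.156 without MRL/MpJ+/+ replicate 1, MRL/MpJ+/+ replicate 2 or C57BL/6 replicate 2. Its other tested probe sets differed by 0.25 and 0.18, without a call. Averaged over all its probe sets, untested ones included, Zfp91 differed by 0.022 (adjusted p = 0.94). Zfp638, which silences unintegrated retroviral DNA, read 306 and 294 units in MRL/MpJ+/+ and 245 and 175 units in AKR/N, and their difference was 0.50, adjusted p = 0.0520. Zfp207, a spindle assembly factor, Zfp598, a sensor of collided ribosomes, Zfp622, Zfp106, Zfp326, Zfp473 and Zfp830 had no call.

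The list of DNA-binding regulators of transcription and chromatin had 20 members of 27 genes, and a single gene of it was called. None rose and 1 fell in MRL/MpJ+/+ against C57BL/6 (median 0.11), none was called in AKR/N against C57BL/6 (median 0.038), and 1 fell in MRL/MpJ+/+ against AKR/N (median 0.057). That gene was Zfp277. Of the others, Zfp384 read 544 and 524 units in MRL/MpJ+/+, 465 and 483 units in AKR/N and 475 and 495 units in C57BL/6. Zfp281, a regulator of pluripotent cells, read 274 and 239.8 units in MRL/MpJ+/+, 214 and 214 units in AKR/N and 219 and 252 units in C57BL/6. Zfp644, a partner of the H3K9 methyltransferases Ehmt1 and Ehmt2, read 439 and 411, 422 and 414 and 483 and 417 units in the same order. None of the 3 had a call in any comparison. Zfp410, which controls Chd4, varied within strains, at 155 and 116 units in MRL/MpJ+/+, 149.6 and 144 units in AKR/N and 157 and 90.6 units in C57BL/6.

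The brightest probe set of all was that of Zfp574, at 2064 and 2068 units in MRL/MpJ+/+, 1884 and 1877 units in AKR/N and 1846 and 2194 units in C57BL/6, with no call. Zfp110, whose protein binds the p75 neurotrophin receptor, read 1209.8 and 1305 units in MRL/MpJ+/+, 1191 and 1346 units in AKR/N and 1402 and 1333 units in C57BL/6, again with none. Signals of different probe sets do not rank transcripts by amount.

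By their brightest probe sets, neighbouring members did not all differ alike. By RefSeq order of protein-coding genes, 36 of the 160 lie directly beside another member, in 14 runs of up to 4 genes. The F test called at least 1 gene in 10 runs, at least 2 in 5, and every gene in 1, that of Zfp692 and Zfp672. It called 22.5% of the 160 genes and 23.8% of the 10210 genes chosen by the same rule. Whether called genes gather in runs was not tested. In the run of Zfp93, Zfp61 and Zfp94, Zfp93 fell in MRL/MpJ+/+ against C57BL/6 (-0.74) and Zfp61 rose (0.41, adjusted p = 0.0413), a call kept in 6 of 16 alternative settings, with adjusted p between 0.0645 and 0.179 without MRL/MpJ+/+ replicate 1, MRL/MpJ+/+ replicate 2, AKR/N replicate 1, AKR/N replicate 2, C57BL/6 replicate 1 or C57BL/6 replicate 2. Zfp61 read 169 and 166 units in MRL/MpJ+/+, 121 and 124 units in AKR/N and 126 and 119 units in C57BL/6. In the run of Zfp944 and Zfp758, Zfp944 was called higher in AKR/N against C57BL/6 and Zfp758 differed by -0.67, adjusted p = 0.118. The other probe set of Zfp944 differed by -0.49 there, the same way as Zfp758, without a call. In the run of Zfp397, Zfp35 and Zfp24, Zfp397 was called higher and Zfp24 lower in MRL/MpJ+/+ against AKR/N. Zfp35 differed by 0.21, adjusted p = 0.122. The calls of Zfp397 and Zfp24 were kept in 9 and 6 of 16 alternative settings. Of the other probe sets of Zfp24, 1 was called higher by 0.83 and 1 lower by -0.79. The run of Zfp212, Zfp956, Zfp777 and Zfp746 held rises of Zfp212 and Zfp746 in MRL/MpJ+/+ against C57BL/6 beside differences of 0.14 for Zfp956 and -0.24 for Zfp777, without a call.

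Corepressors that KRAB zinc finger proteins recruit were counted in the same way. Of 28 genes of that pathway 26 were tested. Cbx3 and Dnmt3a lay below that minimum, at 38.6 and 49.6 units on average. For them the mean of a gene's probe sets was not among the alternative settings, so their calls rest on the brightest probe set. In MRL/MpJ+/+ against C57BL/6 1 rose and 1 fell (median 0.08), in AKR/N against C57BL/6 3 rose and 2 fell (median -0.0032), and in MRL/MpJ+/+ against AKR/N none rose and 1 fell (median -0.00041). Over the 10210 genes, 15.6%, 15.2% and 11.6% were called in these comparisons. Trim28 itself read 2229 and 2404 units in MRL/MpJ+/+, 2110.3 and 2289.6 units in AKR/N and 1969 and 2279.8 units in C57BL/6, with fold changes between 0.053 and 0.13 and no call. Cbx1, a heterochromatin protein, read 425 and 407 units in MRL/MpJ+/+, 377 and 363 units in AKR/N and 251 and 253 units in C57BL/6. A rise was called in MRL/MpJ+/+ (0.69, adjusted p = 5.59e-04), a call kept in 15 of 15 alternative settings. In AKR/N it was called as well (0.53, adjusted p = 0.00309), a call kept in 14 of 15 alternative settings. The probe set of Cbx1 is of a class that can bind several transcripts.

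Hdac1, a histone deacetylase, read 1014 and 908 units in MRL/MpJ+/+, 1091 and 1023 units in AKR/N and 1472 and 1462 units in C57BL/6. The C57BL/6 arrays were the highest. It fell in MRL/MpJ+/+ (-0.60, adjusted p = 5.84e-04), a call kept in 15 of 15 alternative settings, and in AKR/N (-0.47, adjusted p = 0.00298), a call kept in 14 of 15 alternative settings. Dnmt3l, a cofactor of germline DNA methylation, rose in AKR/N against C57BL/6 (0.66, adjusted p = 0.0223), a call kept in 10 of 15 alternative settings, with adjusted p between 0.0719 and 0.162 without AKR/N replicate 1, AKR/N replicate 2 or C57BL/6 replicate 2. Rbbp7 rose there as well (0.26, adjusted p = 0.0383), a call kept in 7 of 15 alternative settings, with adjusted p between 0.0537 and 0.189 without MRL/MpJ+/+ replicate 1, MRL/MpJ+/+ replicate 2, AKR/N replicate 1, AKR/N replicate 2 or C57BL/6 replicate 2. Atf7ip, a partner of Setdb1, fell there (-0.40, adjusted p = 0.0378), a call kept in 6 of 15 alternative settings, with adjusted p between 0.0578 and 0.221 without MRL/MpJ+/+ replicate 1, MRL/MpJ+/+ replicate 2, AKR/N replicate 1, AKR/N replicate 2 or C57BL/6 replicate 1. Suv39h2, a histone methyltransferase of germ cells, was lower in MRL/MpJ+/+ than in AKR/N (-0.53, adjusted p = 0.0154), a call kept in 10 of 15 alternative settings, with adjusted p between 0.0728 and 0.102 without MRL/MpJ+/+ replicate 1, MRL/MpJ+/+ replicate 2, AKR/N replicate 1 or AKR/N replicate 2.

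Genes of other zinc finger families were counted in the same way. Of 47 genes named Zbtb, Zscan, Zkscan or Klf and chosen by the same rule, 6 were called in MRL/MpJ+/+ against C57BL/6, 2 in AKR/N against C57BL/6 and 4 in MRL/MpJ+/+ against AKR/N. These are 12.8%, 4.26% and 8.51%, beside 15.6%, 11.2% and 9.38% of the Zfp genes. Over the 10210 genes chosen by the same rule, the shares were 15.6%, 15.2% and 11.6%. The difference between the families was not tested.

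Some cell type markers moved with strain beside these genes. The 10 spermatocyte markers summed to 8451 to 8941 units in MRL/MpJ+/+, 5868 to 6994 units in AKR/N and 8841 to 8930.1 units in C57BL/6, with AKR/N lowest. Of these markers 1 was called higher and 3 lower in MRL/MpJ+/+ against C57BL/6, 0 and 5 in AKR/N against C57BL/6, and 7 and 0 in MRL/MpJ+/+ against AKR/N. Hormad1 read 849 and 653 units in MRL/MpJ+/+, 574 and 416 in AKR/N and 426 and 365 in C57BL/6, where its mean was lowest. The 10 round spermatid markers summed to 13110 to 13346 units in MRL/MpJ+/+, 16186 to 16643 units in AKR/N and 15163 to 16644 units in C57BL/6, and in the same 3 comparisons 0 were higher and 5 lower, 0 and 0, and 0 and 6. Elongating spermatid markers, with protamines among them, summed to 57302 to 63653 units in MRL/MpJ+/+, 60431 to 64599 units in AKR/N and 65078 to 71191 units in C57BL/6, and all 10 were above 50 units on average. They had 0 higher and 2 lower, 1 and 1, and 0 and 1 in the 3 comparisons. The 6 tested Leydig cell markers summed to 5484 to 5695 units in MRL/MpJ+/+, 5427 to 5967 units in AKR/N and 3348 to 3440.4 units in C57BL/6, with 4 higher and 0 lower, 4 and 0, and 1 and 1. Over the 10210 genes, the shares called in the 3 comparisons were 15.6%, 15.2% and 11.6%. The 9 Sertoli cell markers tested summed to 5880.5 to 6072 units, 6942 to 7118 units and 5828 to 5984 units in the same order, and 9 spermatogonial ones to 1846 to 1912 units, 1484 to 1703 units and 1603 to 1714 units. In the 3 comparisons the Sertoli cell markers had 0 higher and 0 lower, 3 and 0, and 0 and 2. Spermatogonial markers had 1 higher and 0 lower in each comparison. Sums for 9 macrophage markers were 936 to 947, 1027 to 1082 and 1012 to 1044 units. The 6 of vessels and peritubular cells gave 1145 to 1152, 988 to 1008 and 1052 to 1182 units. None of these was called, and of the macrophage markers 1 was called, lower in MRL/MpJ+/+ against C57BL/6. Of other tissues, the 4 adipose markers tested summed to 415 to 439 units in MRL/MpJ+/+, 453 to 744 units in AKR/N and 227 to 255 units in C57BL/6. In the 3 comparisons 2 of them were higher and 0 lower, 3 and 0, and 0 and 0. AKR/N replicate 1 had the higher sum, with Fabp4 at 172 and Car3 at 192 units, against 49.5 and 64.8 units on replicate 2. The 3 T cell markers tested, each under 50 units on average, summed to 34.8 to 54.8, 137 to 210.2 and 53.7 to 59.6 units. The high AKR/N sums came from Cd3d, at 113 and 173 units there and 1.17 to 2.31 units on the other arrays. In AKR/N Cd3e read 19.9 and 13.3 units and Cd8a 4.21 and 23.9 units, within or below the range of the other strains. Epididymis and blood had 2 tested markers each, at 25.9 to 27.7, 17.4 to 123 and 90.4 to 91.6 units, and 129 to 134, 124 to 126 and 92.4 to 104 units. The epididymis marker Defb42 read 111 units on AKR/N replicate 1 and 12.5 units on replicate 2. Rnase10, the other, read 68.8 and 78.0 units in C57BL/6 and 4.84 to 15.6 units on the other arrays. The part of cell makeup in the Zfp differences was not tested.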

How the data were processed

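Testis RNA of 3 strains, 2 mice a strain, was measured on 6 arrays. The deposited values are linear intensities, 1 per probe set, and, as the values show, every array has the same trimmed mean of 125.001 units. The summary software is not given in the sources used here. Of 45101 probe sets, 34945 have a single gene symbol in the platform annotation, 932 several and 9160 none. Those with several (27 Zfp probe sets) were not used.

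Values were tested as log2(intensity + 16) by limma (version 3.58.1, under R 4.3.3), whose eBayes step was given a variance trend after lmFit on all 6 arrays. The 29692 probe sets with at least 2 arrays above the 40th percentile of their array were tested, with Benjamini-Hochberg adjustment over all of them and a threshold of 0.05. The fit leaves 3 residual degrees of freedom. The labels number 2 replicates a strain without tying each array to a mouse, so p-values measure the spread between these arrays, which may be in part technical. No single-gene permutation test was used, since 2 arrays a strain cannot pass a threshold.

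The members and lists were chosen with earlier results of these data known. Genes were named by rule: in each comparison the 10 largest rises and 10 largest falls among called members with non-overlapping arrays, the 8 brightest, the 3 on either side of the minimum of 50 units, and the members of the lists. Zfp692, Zfp61, Zfp94, Zfp758 and Zfp777 were named after their values were seen, as neighbours. Replicate numbers are shared between strains, but the deviations of same-numbered arrays correlated at 0.047, 0.049 and 0.043, so no pairing was used. Alternatives changed the normalization, filter, variance trend, pseudocount, probe set rule, minimum level and arrays used. The requirement that every array reach 50 units was chosen after seeing the data. Cell type markers were summed with 1 tested probe set a gene.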

Additional observations from a re-analysis of the deposited data

How the results depend on the processing

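Counts of called Zfp genes are given in the order MRL/MpJ+/+ against C57BL/6, AKR/N against C57BL/6, MRL/MpJ+/+ against AKR/N and the F test, where they were 25, 18, 15 and 36. Without a variance trend they were 14, 8, 2 and 10. With the mean of all of a gene's probe sets, untested ones included, they were 14, 12, 9 and 21. Without a filter MRL/MpJ+/+ against AKR/N had 6. AKR/N against C57BL/6 had 11 at a minimum mean of 100 units and 10 with every array at 50 units or more, where fewer genes are counted. Leaving out 1 array gave 12 to 23, 7 to 18, 4 to 15 and 21 to 30. The F test gave 22 without MRL/MpJ+/+ replicate 1, 22 without MRL/MpJ+/+ replicate 2 and 21 without AKR/N replicate 2. With the replicate number as a block, a pairing the labels do not state, they were 30, 21, 19 and 42. Quantile normalization, median centring, the 60th percentile filter, the other pseudocounts and a minimum mean of 25 units kept each count within 1.5 times.

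Of 55 calls of named genes, each under 16 alternatives, 680 of 880 values kept the direction and the call, 199 kept the direction only, and 1 reversed. That was Zfp949 in MRL/MpJ+/+ against AKR/N, at 0.077 as the mean of its probe sets, which differ in direction. Otherwise the cause was not tested. The number of arrays, 2 a strain, limits what differences could be called.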

Other observations

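The share of Zfp genes called by the F test varied with signal. It was 11 of 66 genes (16.7%) with means of 50 to 100 units, 13 of 49 (26.5%) at 100 to 200 units, 8 of 33 (24.2%) at 200 to 500 units and 4 of 12 (33.3%) at 500 units or more. Over the 10210 genes the shares were 14%, 19.9%, 27.6% and 32.6%.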
